A study of Mus musculus with 4 samples.

Results

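The genes of the aminoacyl-tRNA synthetases, the enzymes that join each amino acid to its transfer RNA (tRNA), were followed in rib chondrocytes, the cells that make cartilage matrix. 36 of the 17575 entries in the expression files were taken by symbol, each as a listed name or that name with a trailing 1. 20 encode cytosolic enzymes and 16, with symbols that end in 2, encode mitochondrial enzymes. The knockout (KO) libraries came from mice with loxP-flanked (fl/fl) alleles of both Kdm6a and Kdm6b and the transgene Col2Cre(Tg), which places Cre recombinase under control of the cartilage collagen gene Col2. The wild type (WT) libraries came from mice with no alteration given in the labels, and both groups were 10-day-old mice of the strain C57/Bl6. Kdm6a and Kdm6b encode demethylases of the repressive mark on lysine 27 of histone H3, and the comparison asks which genes are expressed differently when cartilage cells lose both. Rib cartilage was digested overnight with collagenase II, and the cells were filtered and plated before RNA was extracted and sequenced. Cells that never used Col2 would keep both genes. Triplicates are mentioned in the series text, but 2 KO and 2 WT libraries were analysed here. The labels leave unsaid whether the 2 libraries of a group stand for different animals, so each p-value reflects only how far these libraries differ, which may be technical.

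Each synthetase recognises 1 amino acid and the matching tRNAs, and the charged tRNA then carries that amino acid to the ribosome. Most mammalian synthetases come as a pair of genes, of which one enzyme works in the cytosol and the other is imported into mitochondria, where it serves the few proteins of the respiratory chain made there. Gars and Kars each supply both compartments, and Eprs encodes a fused enzyme for glutamate and proline. Several cytosolic enzymes sit together in the multisynthetase complex, held by the scaffold proteins encoded by Aimp1, Aimp2 and Eef1e1. Many cytosolic synthetase genes are known targets of ATF4, the transcription factor that is translated when the initiation factor eIF2 is phosphorylated, as happens when amino acids run short or proteins misfold in the endoplasmic reticulum. Cartilage cells export large amounts of collagen and proteoglycan, whose synthesis draws on charged tRNA.

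The libraries held 31178248 to 32332044 estimated counts each. The targeted genes were lower in the libraries labelled KO. Kdm6b had 51.4 and 46.2 CPM (counts scaled to library size by TMM) in KO cells, against 131 and 118 CPM in WT cells. Kdm6a had 28.6 and 31.4 CPM in KO cells, against 52.6 and 56.9 CPM in WT cells. Among 8 chondrocyte markers, Col2a1, Col9a1 and Col11a1 rose and Matn1 and Comp fell. Acan, Hapln1 and Sox9 did neither, with log2 fold changes of 0.33, 0.24 and -0.19. Summed over the 8, FPKM (fragments per kilobase of transcript, scaled to library size) was 10776 and 10385 in KO cells. In WT cells this sum was 7708 and 7236 FPKM. Col2a1 made up most of it, with 7547 and 7426 FPKM in KO cells, against 5220 and 4767 FPKM in WT cells. Markers of other cell types were present as well, and several fell in KO cells. Over all tested genes, 5.63% were called lower and 3.62% higher at an edgeR adjusted p under 0.05. For 6 macrophage markers the sum was 23.7 and 23.0 FPKM in KO cells and 36.1 and 32.1 FPKM in WT cells, and 1 fell. For 5 endothelial markers it was 23.2 and 19.2 FPKM in KO cells and 30.96 and 27.6 FPKM in WT cells, and 3 fell. 3 erythroid markers summed to 15.4 and 17.1 FPKM in KO cells and to 28.05 and 33.2 FPKM in WT cells, with 2 that fell. Fibroblast markers, 4 in number, summed to 187 and 239 FPKM in KO cells and to 332 and 498 FPKM in WT cells, and 2 of them fell. Most of that sum was Dcn, which encodes decorin, with 140 and 172 FPKM in KO cells, against 244 and 391.99 FPKM in WT cells. 4 osteoblast markers summed to 1.46 and 2.24 FPKM in KO cells and to 4.27 and 4.84 FPKM in WT cells, with 1 that fell. Muscle markers, 4 in number, summed to 2.32 and 9.66 FPKM in KO cells and to 4.06 and 3.54 FPKM in WT cells. The muscle markers did not separate the groups, and KO replicate 2 had the highest sum. Under 1 FPKM in every library were 3 macrophage, 1 erythroid, 2 osteoblast and 2 muscle markers. DESeq2 called 2 macrophage markers as lower, and 0 of the 3 osteoblast markers to which it gave an adjusted p. The part of these cells in the synthetase results was not tested. In bulk RNA, fewer cells of a type and less RNA per cell cannot be told apart.

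Cytosolic synthetase genes were expressed at a higher level than mitochondrial ones in every library. Over the 4 libraries, the cytosolic genes lay between 27.7 and 216 FPKM and the mitochondrial genes between 1.60 and 24.9 FPKM, with no overlap between the groups of genes. Nars, for asparagine, had the highest level. Its values were 160 and 169 FPKM in KO cells, against 182 and 216 FPKM in WT cells. Gars, for glycine, the most frequent residue of collagen, came next with 143 and 150 FPKM in KO cells, against 161 and 178 FPKM in WT cells. Nars and Gars overlapped each other over the 4 libraries and both lay above Tars, for threonine, whose mean over the libraries was 99.3 FPKM. Vars, for valine, was the lowest cytosolic gene at a mean of 29.2 FPKM, and 17 of the 19 neighbouring pairs in the cytosolic order overlapped. Among mitochondrial genes, Yars2, for tyrosine, stood above all others with a mean of 22.2 FPKM, and Iars2, for isoleucine, followed with 16.1 FPKM. Lars2, for leucine, was the lowest at 1.97 FPKM, and 11 of the 15 neighbouring pairs in the mitochondrial order overlapped.

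**Figure D1:**
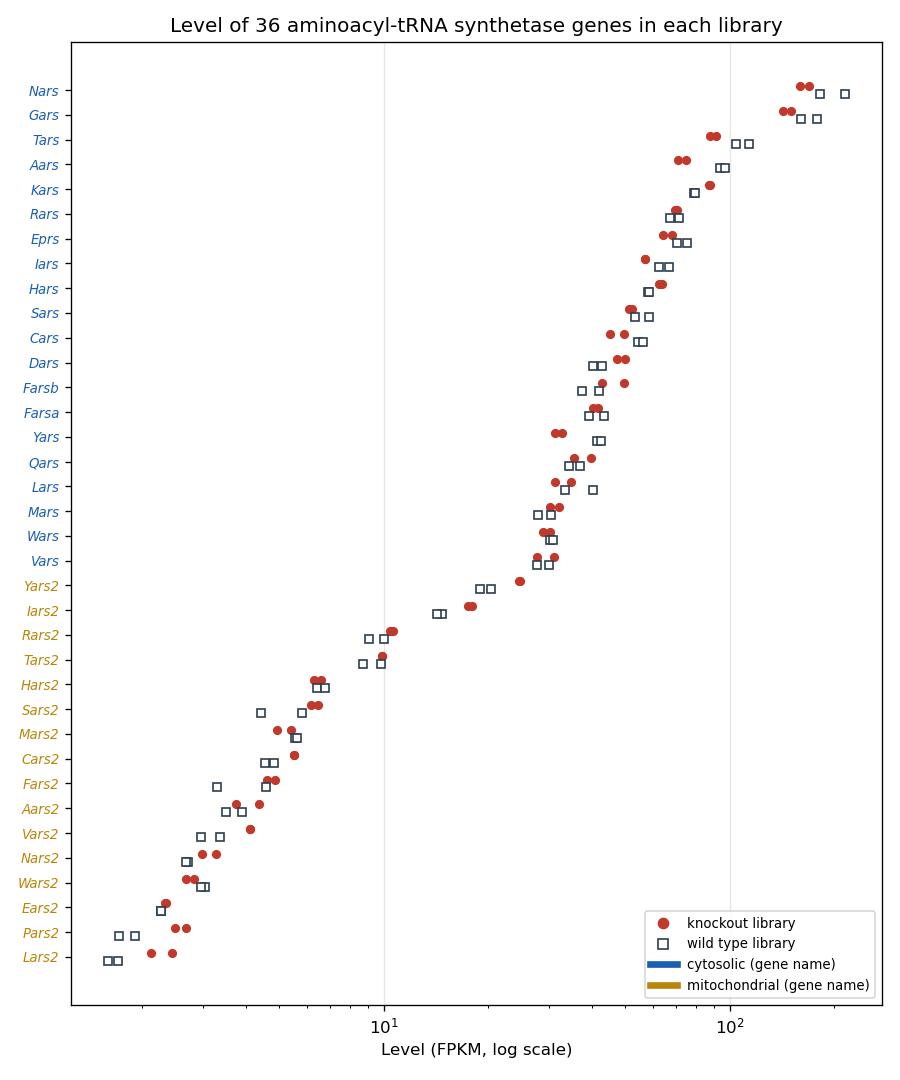
Level of each synthetase gene (FPKM, log axis) in each library, with genes ordered by their mean within the cytosolic set (blue names) and the mitochondrial set (ochre names), filled circles for KO and open squares for WT libraries. The cytosolic genes lie between 27.7 and 216 FPKM and the mitochondrial genes between 1.60 and 24.9 FPKM.

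In KO cells 2 cytosolic synthetase genes fell, Aars for alanine and Yars for tyrosine, and no synthetase gene rose past the threshold. All 36 genes had enough counts to be tested. Aars, on chromosome 8, had 262 and 278 CPM in KO cells, against 353 and 374 CPM in WT cells. Yars, on chromosome 4, had 93.1 and 89.2 CPM in KO cells, against 119 and 126 CPM in WT cells. For both genes each KO library lay below each WT library. Aars fell by 25.7% (log2 fold change -0.43, SE 0.076, edgeR adjusted p = 0.0232 over 13773 tested genes). Yars fell by 25.5% (log2 fold change -0.42, SE 0.073, edgeR adjusted p = 0.0216). The call of 2 among 36 genes was no more frequent than among all tested genes, of which 9.25% passed at an adjusted p under 0.05 in either direction, 5.63% as lower and 3.62% as higher. DESeq2 called Tars as well, with an adjusted p of 0.0194 against 0.0629 by edgeR. Of all genes with an adjusted p, DESeq2 called 7.8% as lower and 5.26% as higher. In the authors' deposited table the same 3 genes had an adjusted p under 0.05, with log2 fold changes of -0.42 for Aars, -0.42 for Yars and -0.32 for Tars, and none of the 36 carried its mark for an up- or down-regulated gene. The edgeR adjusted p of Aars was 0.0651 without KO replicate 1, 0.115 without WT replicate 1 and 0.206 without WT replicate 2. That of Yars was 0.0638 without KO replicate 2, 0.115 without WT replicate 1 and 0.205 without WT replicate 2.

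The promoters of both called genes hold the letters of the amino acid response element, which ATF4 and C/EBP proteins bind as a pair. Promoter windows of 250 bases before to 50 bases after the RefSeq transcription start (mouse assembly GRCm38.p6) were at hand for 13 cytosolic and 14 mitochondrial genes, and were searched on both strands for TGATGNAA, which reads TTNCATCA on the other strand. 5 genes had a match, and their sequences are given with the match in capitals, since these are the letters on which the comparison of promoters rests. Where the match lies before the start, the 250 bases up to the start are given in the direction of transcription. Those of Aars are chr8:111033592-111033841 on the plus strand, those of Gars chr6:55037751-55038000 on the plus strand and those of Tars chr15:11399659-11399908 on the minus strand. Where it lies after the start, 30 bases around it are given, chr8:111033840-111033869 for the other match of Aars, chr4:129189895-129189924 for Yars and chr13:49682126-49682155 for Iars, all on the plus strand.
Aars, before the start: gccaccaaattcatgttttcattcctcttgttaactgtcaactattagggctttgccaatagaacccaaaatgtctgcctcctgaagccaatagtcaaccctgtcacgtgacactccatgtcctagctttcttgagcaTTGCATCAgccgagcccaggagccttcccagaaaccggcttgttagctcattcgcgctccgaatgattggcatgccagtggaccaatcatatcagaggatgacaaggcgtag
Aars, around the start: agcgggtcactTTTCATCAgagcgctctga
Yars, around the start: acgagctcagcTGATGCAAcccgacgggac
Tars, before the start: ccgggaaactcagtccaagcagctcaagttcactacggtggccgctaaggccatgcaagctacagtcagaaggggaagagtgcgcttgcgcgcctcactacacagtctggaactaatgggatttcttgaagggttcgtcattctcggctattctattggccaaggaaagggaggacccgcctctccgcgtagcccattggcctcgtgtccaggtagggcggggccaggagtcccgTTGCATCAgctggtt
Gars, before the start: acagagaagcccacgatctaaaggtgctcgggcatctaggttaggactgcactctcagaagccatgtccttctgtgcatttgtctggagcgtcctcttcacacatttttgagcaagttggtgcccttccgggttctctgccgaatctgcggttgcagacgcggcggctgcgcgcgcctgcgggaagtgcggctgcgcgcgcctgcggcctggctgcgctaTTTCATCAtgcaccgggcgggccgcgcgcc
Iars, around the start: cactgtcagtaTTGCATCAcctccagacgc

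TGATGNAA was found for 5 of the 13 cytosolic genes with a window (38.5%) and for 0 of the 14 mitochondrial ones. Of all tested genes with a window, 2.79% held it, and of all genes with a window 4.51%. The stricter TGATGCAA, a special case of the same letters, was in the windows of Aars, Iars, Tars and Yars and in those of 0.694% of tested genes. Aars had a match 112 bases before the start and another 10 bases after it, Gars 30 bases and Tars 15 bases before the start, and Yars 4 bases and Iars 8 bases after it. The E-box letters CACGTG, bound by MYC and related factors and identical on both strands, were in 4 cytosolic windows (Aars, Farsb, Iars and Tars) and 1 mitochondrial window (Ears2), and in 11.6% of tested genes. The 5 cytosolic genes with TGATGNAA had log2 fold changes of -0.43 to -0.22, all negative, with a median of -0.32. The 8 cytosolic genes whose window lacked it had -0.18 to 0.18, with 3 negative and a median of 0.05. The 7 cytosolic genes with no window had a median of -0.09 and 6 negative values. A match describes the letters only, and whether a factor binds there was not tested. The motifs were chosen with earlier results of these data known, so this split of the genes is used here as a description.

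**Figure D2:**
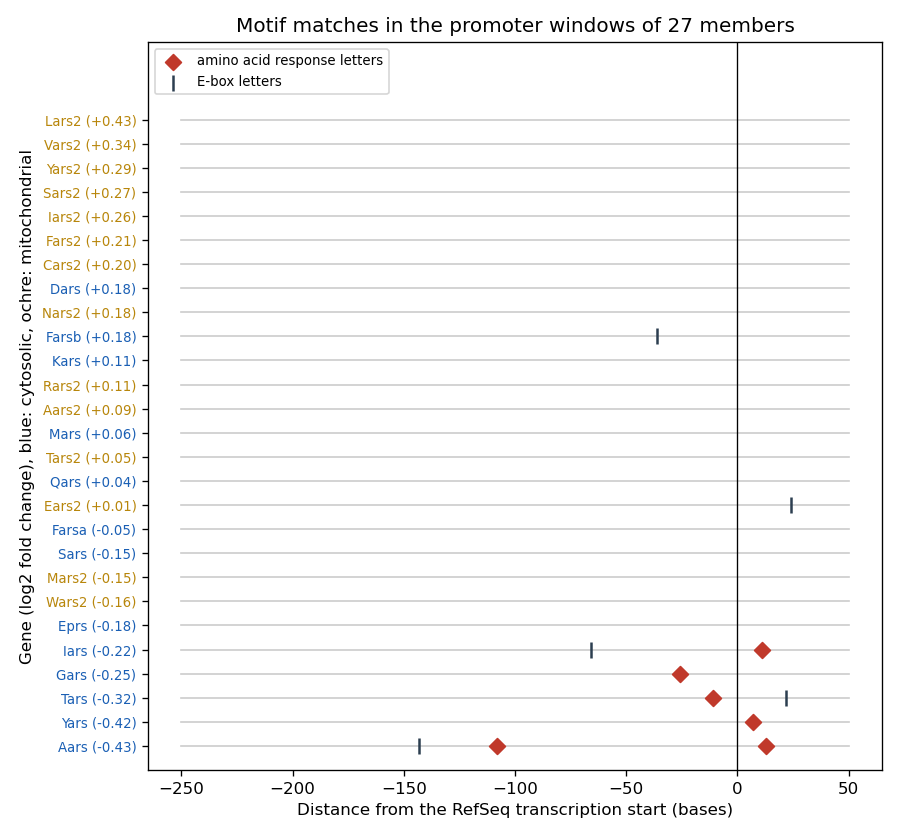
Positions of TGATGNAA (diamonds, amino acid response letters) and CACGTG (bars, E-box letters) in the 300-base promoter windows of 27 synthetase genes, in bases from the RefSeq start, with genes ordered by log2 fold change of KO against WT and named in blue (cytosolic) or ochre (mitochondrial). The diamonds lie in the 5 lowest rows, from Iars at -0.22 to Aars at -0.43. The motifs were chosen with earlier results of these data known.

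Beyond Aars and Yars, most of the cytosolic synthetase genes had lower values in KO cells. 14 of the 20 had a negative log2 fold change, against 49.4% of all tested genes, and the median was -0.12, against 0.0044 over all tested genes. Both KO libraries lay below both WT libraries in CPM for 10 cytosolic genes and above them for 4, where 30.7% and 30.9% of all tested genes did so. 7 cytosolic genes had an unadjusted edgeR p under 0.05 and a negative value, and 0 had a positive one, against 15.3% and 13.8% of all tested genes. The median was -0.056 without WT replicate 2 and -0.18 without WT replicate 1.

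Tars, for threonine, had 238 and 228 CPM in KO cells, against 275 and 308 CPM in WT cells. Its log2 fold change was -0.32 (SE 0.084, edgeR adjusted p = 0.0629). Nars had 421 and 446 CPM in KO cells, against 486 and 590 CPM in WT cells. All KO libraries of both genes lay below the WT libraries, but the WT libraries of Nars differed from each other by more than the lower of them differed from KO, and its adjusted p was 0.115 (log2 fold change -0.31, SE 0.11). Cars, for cysteine, had 147 and 135 CPM in KO cells, against 165 and 175 CPM in WT cells (log2 fold change -0.27, SE 0.080, edgeR adjusted p = 0.0855). Gars had 336 and 355 CPM in KO cells, against 385 and 437 CPM in WT cells (log2 fold change -0.25, SE 0.088, edgeR adjusted p = 0.122). Neither gene passed, although their KO libraries lay apart from their WT libraries. Iars had 249 and 249 CPM in KO cells, against 276 and 303 CPM in WT cells (log2 fold change -0.22, SE 0.077, edgeR adjusted p = 0.126). Eprs had 328 and 310 CPM in KO cells, against 344 and 377 CPM in WT cells (log2 fold change -0.18, SE 0.080, edgeR adjusted p = 0.202). Sars, for serine, and Wars, for tryptophan, were also lower in both KO libraries, with log2 fold changes of -0.15 and -0.09. Lars, for leucine, had 120 and 133 CPM in KO cells and 129 and 160 CPM in WT cells, so its groups overlapped.

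The 4 cytosolic genes with higher values in both KO libraries were Dars, Farsb, Kars and Hars, for aspartate, phenylalanine, lysine and histidine. Dars, a member of the multisynthetase complex, had 110 and 105 CPM in KO cells, against 90.4 and 98.7 CPM in WT cells (log2 fold change 0.18, SE 0.078, edgeR adjusted p = 0.178). Farsb encodes the subunit that pairs with that of Farsa, and the log2 fold changes were 0.18 for Farsb and -0.05 for Farsa. Kars had 178 and 180 CPM in KO cells, against 164 and 168 CPM in WT cells, with a log2 fold change of 0.11. Hars had 125 and 123 CPM in KO cells, against 115 and 120 CPM in WT cells, with a log2 fold change of 0.08. Vars, Rars, Qars and Mars, for valine, arginine, glutamine and methionine, had values between -0.03 and 0.06 with groups that overlapped. The SE over the cytosolic genes ran from 0.068 to 0.12.

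The mitochondrial synthetase genes had mostly higher values in KO cells, and edgeR and DESeq2 called 0 of the 16. 13 had a positive log2 fold change, against 6969 of all 13773 tested genes, and the median was 0.19, against 0.0044. 8 were higher in both KO libraries and 2 lower, against the 30.9% and 30.7% of all tested genes given above. At an unadjusted edgeR p under 0.05, 5 were higher in KO cells and 0 lower, against 13.8% and 15.3% of all tested genes. Yars2 had the smallest p. Its values were 38.6 and 38.3 CPM in KO cells, against 32.2 and 30.7 CPM in WT cells, and its log2 fold change was 0.29 (SE 0.077, edgeR adjusted p = 0.0669). Iars2 had 61.4 and 63.5 CPM in KO cells, against 52.5 and 52.1 CPM in WT cells (log2 fold change 0.26, SE 0.069, edgeR adjusted p = 0.0696). In both genes the libraries of a group lay close together and the groups did not overlap. Pars2, for proline, had 6.41 and 6.47 CPM in KO cells, against 4.78 and 4.48 CPM in WT cells. It had the highest log2 fold change of the 36 genes, 0.48 (SE 0.15, edgeR adjusted p = 0.0956), on 136 to 211 counts per library. Lars2 followed with 8.21 and 9.45 CPM in KO cells, against 6.23 and 6.85 CPM in WT cells (log2 fold change 0.43, SE 0.15, edgeR adjusted p = 0.114). Vars2 had 18.2 CPM in both KO libraries, against 15.1 and 13.6 CPM in WT cells (log2 fold change 0.34, SE 0.11, edgeR adjusted p = 0.1003). None of these 3 low genes passed, although the groups of each lay apart.

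Sars2, Cars2 and Nars2 were the other mitochondrial genes with higher values in both KO libraries, with log2 fold changes of 0.27, 0.20 and 0.18. Fars2, for phenylalanine, had 9.03 and 8.38 CPM in KO cells and 8.67 and 6.39 CPM in WT cells, so its groups overlapped and its SE, 0.18, was the largest of the set. Rars2, Aars2, Tars2 and Ears2 lay between 0.01 and 0.11. Mars2 had 14.0 and 15.4 CPM in KO cells, against 16.1 and 16.7 CPM in WT cells, and Wars2 had 11.7 and 12.4 CPM in KO cells, against 13.4 and 13.5 CPM in WT cells. These were the 2 genes lower in both KO libraries, with log2 fold changes of -0.15 and -0.16. Hars2 had a log2 fold change of -0.07, but part of its counts stood in an entry named by transcript, with 127.5 and 89.8 counts in KO libraries, against 37.5 and 0 counts in WT libraries. With both entries summed the log2 fold change of Hars2 was 0.11 (SE 0.093, edgeR adjusted p = 0.478). Hars and Hars2 are neighbours on chromosome 18, and the use of strand in counting them is not stated.

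**Figure D3:**
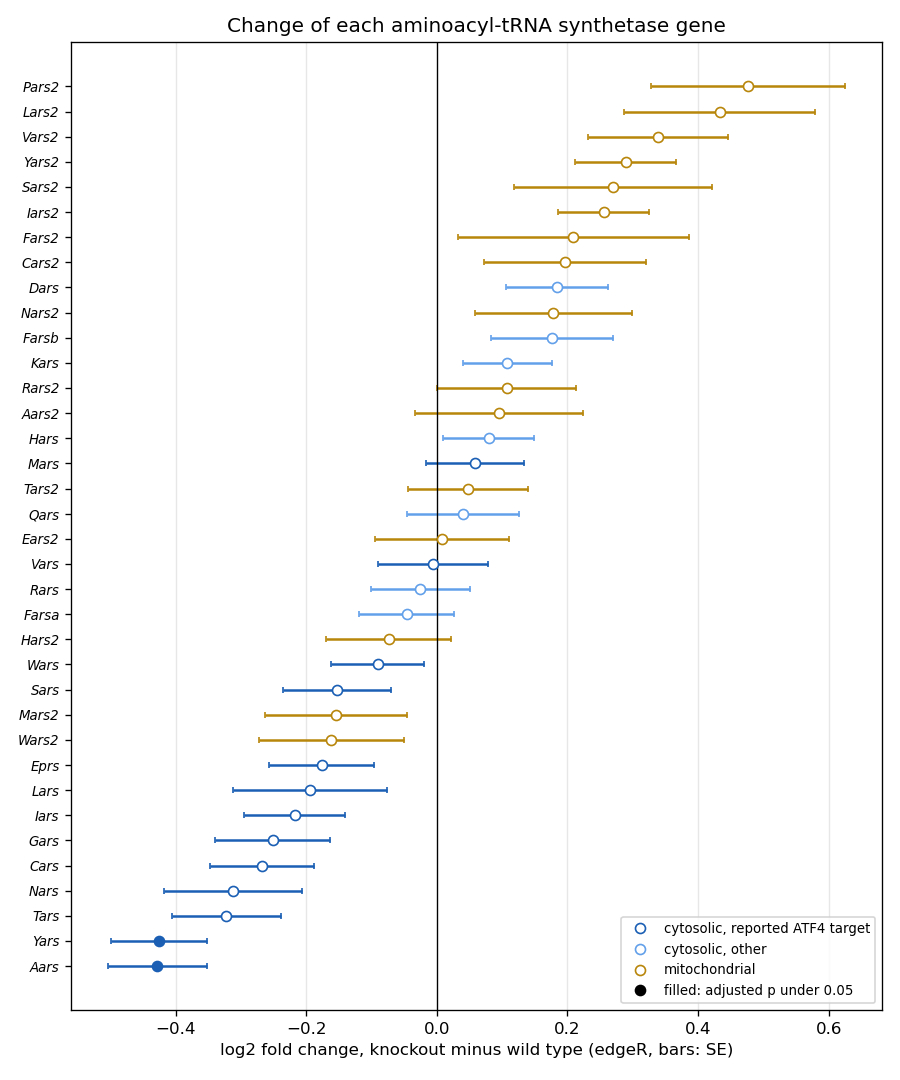
Log2 fold change of KO against WT for each synthetase gene, with bars of 1 SE from edgeR, in dark blue for cytosolic genes reported as ATF4 targets, light blue for other cytosolic genes and ochre for mitochondrial genes. Filled points passed an adjusted p under 0.05, namely Yars at -0.42 and Aars at -0.43, and Pars2 has the highest value at 0.48.

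Summed over their genes, the cytosolic and mitochondrial sets lay on opposite sides. Gars and Kars, which supply both compartments, were counted as cytosolic only, so the mitochondrial sum leaves out their part. The cytosolic sum was 1241 and 1247 FPKM in KO cells, against 1314 and 1395 FPKM in WT cells, a ratio of means of 0.918. The mitochondrial sum was 112 and 113 FPKM in KO cells, against 99.98 and 94.8 FPKM in WT cells, a ratio of 1.15. In each sum the KO libraries lay apart from the WT libraries. The cytosolic sum was 11.1 and 11.02 times the mitochondrial one in KO cells, against 13.1 and 14.7 times in WT cells, and this ratio within a library does not depend on how libraries are scaled to each other. With 2 libraries against 2, an exact two-sided permutation test cannot give a p below 0.333, and no p is given for these sums.

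The same ratio was taken for the 13 amino acids that have 1 cytosolic and 1 mitochondrial gene in the set. In 10 of them both KO libraries lay below both WT libraries, in 2 (Hars/Hars2 and Mars/Mars2) above, and in 1 (Wars/Wars2) the groups overlapped. The tyrosine pair had the largest difference of the 13. Yars was 1.32 and 1.27 times Yars2 in KO cells, against 2.01 and 2.24 times in WT cells. Lars was 14.7 and 14.2 times Lars2 in KO cells, against 20.8 and 23.6 times in WT cells. Aars was 19.0 and 17.2 times Aars2 in KO cells, against 24.1 and 27.8 times in WT cells. All 3 pairs had KO libraries close together and well below the WT libraries. Nars and Nars2 had the widest gap in level, a ratio of 53.5 and 51.7 in KO cells, against 67.1 and 80.5 in WT cells. The opposite order was small in the methionine pair, where Mars was 6.16 and 5.95 times Mars2 in KO cells, against 5.48 and 4.98 times in WT cells. The ratio of the histidine pair used the Hars2 entry without its transcript entry. With the entries summed, Hars had 5.13 and 5.48 times the counts of Hars2 in KO cells, against 5.36 and 5.44 times in WT cells, and the groups overlapped.

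**Figure D4:**
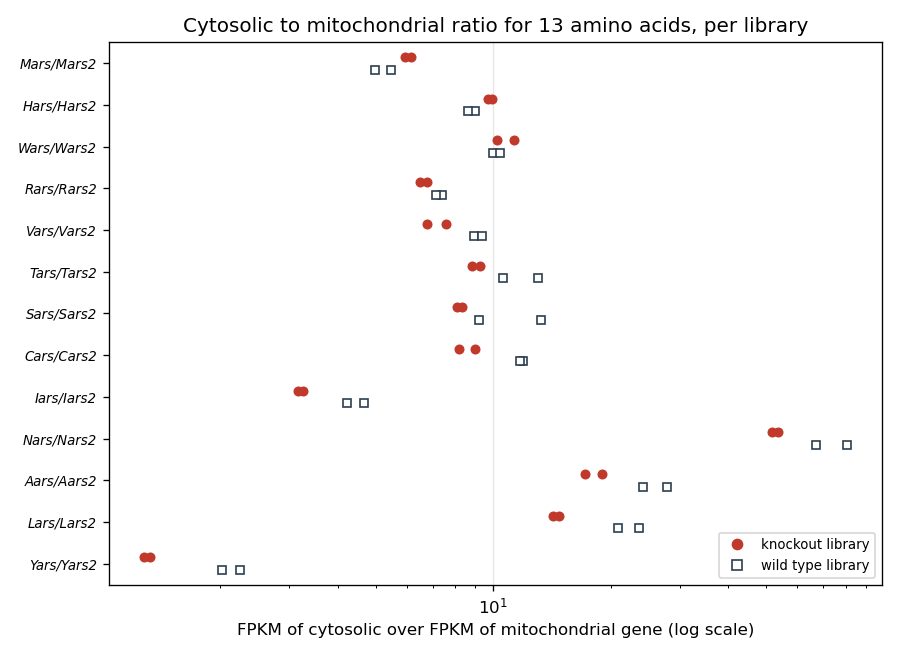
FPKM of the cytosolic gene over FPKM of the mitochondrial gene for the same amino acid (log axis), for 13 pairs, with filled circles for KO and open squares for WT libraries. The tyrosine pair at the bottom has ratios of 1.32 and 1.27 in KO cells, against 2.01 and 2.24 in WT cells, and the KO circles lie left of the WT squares in 10 pairs.

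Within the cytosolic set, the genes reported in mammalian cells as ATF4 targets held 12 of the 14 negative values. That list was made with results of these data known, and it is used here as a description. Of its 13 genes 2 fell, 12 had a negative log2 fold change, 10 were lower in both KO libraries and 0 higher, and the median was -0.22. Mars was the single positive value, at 0.06. Of the 7 other cytosolic genes none was called by edgeR or DESeq2 and 0 had an unadjusted p under 0.05, 2 had a negative value, 0 were lower in both KO libraries and 4 higher, and the median was 0.08. Among all tested genes, 5.63% were called lower and 49.4% had a negative value. The shares of all tested genes lower and higher in both KO libraries were 30.7% and 30.9%. The sum over the 13 reported targets was 844 and 857 FPKM in KO cells, against 948 and 1032 FPKM in WT cells. Over the 7 other genes it was 398 and 390 FPKM in KO cells, against 366 and 364 FPKM in WT cells. Other ways of dividing the enzymes were tried as well. The 8 enzymes of the multisynthetase complex had a median of 0.01 with 0 calls by edgeR or DESeq2. An unadjusted edgeR p under 0.05 was found for 1 of the 8, as lower, against 15.3% of all tested genes as lower. The 12 cytosolic enzymes outside the complex had a median of -0.20 with 10 negative values and both calls. By the fold of the catalytic site, the 19 class I genes of both compartments had a median of -0.01 and the 17 class II genes 0.08, with 1 edgeR call each. The fused enzyme of Eprs was counted in class I only, by its part for glutamate.

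ATF4 and its partners are known to induce or pair with many other genes, and more of these were called in KO cells. Of 28 such genes, counting Atf4 itself, 15 fell and 0 rose, with a median of -0.42. Of the 28, 21 were lower in both KO libraries and 0 higher. Over all tested genes, 5.63% were called lower and 3.62% higher. Both KO libraries lay below both WT libraries for 30.7% of all tested genes and above them for 30.9%. Atf4, named here outside the rule for named genes, had 436 and 448 CPM in KO cells, against 612 and 692 CPM in WT cells (log2 fold change -0.56, SE 0.086, edgeR adjusted p = 0.0151). Slc7a11, a subunit of the cystine importer, had 82.4 and 123 CPM in KO cells, against 286 and 288 CPM in WT cells (log2 fold change -1.49, SE 0.17, edgeR adjusted p = 0.0083). Slc3a2, its partner subunit, had 325 and 354 CPM in KO cells, against 585 and 665.8 CPM in WT cells, and fell by 0.88 on the log2 scale (SE 0.093, edgeR adjusted p = 0.0059). In all 3 genes the KO libraries lay well below the WT libraries. Nupr1, a stress-induced cofactor of transcription, and Slc7a1, an importer of arginine and lysine, fell with log2 fold changes of -0.93 and -0.71. Besides Atf4, the genes named here are those with the smallest p-values of the list. Not all of the 28 fell, since 13 were not called, 7 had groups that overlapped and 2 had positive values, up to 0.098. This list too was chosen with earlier results of these data known. Without WT replicate 1 or WT replicate 2, edgeR called 0 of the 28 genes and 0 of all genes, with 20 and 15 of the 28 at an unadjusted p under 0.05, while DESeq2 called 12 of them without WT replicate 1 and 6 without WT replicate 2. TGATGNAA was in a promoter window of 8 of the 25 of these genes that had one.

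Upstream of ATF4, 2 of 10 genes for eIF2, its kinases and their regulators fell and 0 rose, with a median of -0.10. Of all tested genes, edgeR called 5.63% as lower and 3.62% as higher. Among the 10, 6 had a negative value and 4 a positive one. KO libraries lay below WT libraries for 5 and above them for 1, against 30.7% and 30.9% of all tested genes. Eif2ak3 encodes PERK, the eIF2 kinase of the endoplasmic reticulum, and had 60.2 and 66.0 CPM in KO cells, against 81.1 and 95.5 CPM in WT cells (log2 fold change -0.48, SE 0.10, edgeR adjusted p = 0.0357). Ppp1r15b, which brings a phosphatase to eIF2, had 159 and 154 CPM in KO cells, against 189 and 211 CPM in WT cells (log2 fold change -0.35, SE 0.082, edgeR adjusted p = 0.0473). Both had KO libraries below WT libraries. Eif2ak4, which encodes the kinase GCN2 that senses uncharged tRNA, did not pass, with a log2 fold change of -0.14 (edgeR adjusted p = 0.229). DESeq2 called 3 of the 10 as lower and 0 as higher, against 7.8% and 5.26% of all genes with an adjusted p.

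The scaffold genes of the multisynthetase complex had higher values in KO cells. Eef1e1 had 90.7 and 89.8 CPM in KO cells, against 75.6 and 77.0 CPM in WT cells (log2 fold change 0.24, SE 0.067, edgeR adjusted p = 0.0720). Aimp1 and Aimp2 had log2 fold changes of 0.17 and 0.12. All 3 were higher in both KO libraries, none was called by edgeR or DESeq2, and 1 had an unadjusted edgeR p under 0.05. Among all tested genes, 30.9% were higher in both KO libraries. An unadjusted edgeR p under 0.05 with a higher value in KO cells was found for 13.8%.

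Other genes of mitochondrial translation also had higher values in KO cells, without passing. Of 10 genes for initiation, elongation and release in mitochondria, counting Mtfmt for the formylase of the initiator tRNA, 8 had a positive log2 fold change and the median was 0.16, with 0 calls by edgeR or DESeq2 and 2 unadjusted edgeR p under 0.05. Tufm, the mitochondrial elongation factor Tu, had 73.5 and 76.1 CPM in KO cells, against 66.4 and 59.7 CPM in WT cells (log2 fold change 0.25, SE 0.081, edgeR adjusted p = 0.106). Gfm1, a mitochondrial elongation factor G, was on the other side at -0.16. The 3 genes of the amidotransferase that makes mitochondrial glutaminyl-tRNA, Qrsl1, Gatb and Gatc, were all higher in both KO libraries, with log2 fold changes of 0.34, 0.35 and 0.10. None of them was called by edgeR or DESeq2, and 1 had an unadjusted edgeR p under 0.05. The shares of all tested genes to compare are those given with the scaffold genes.

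**Figure D5:**
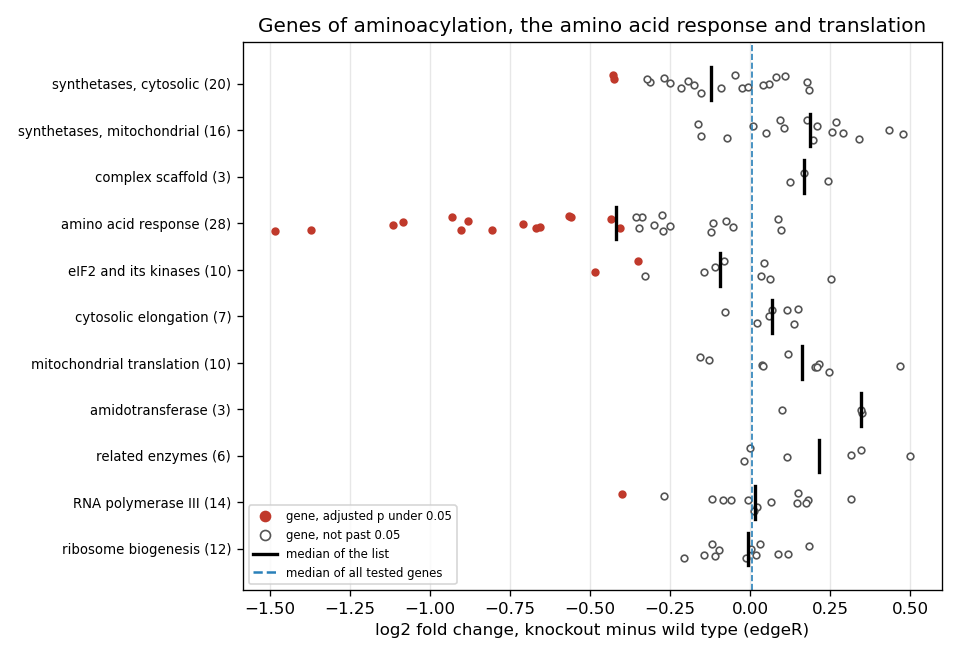
Log2 fold change of KO against WT for each gene of the synthetase sets and of 9 related lists, with filled points for genes past an edgeR adjusted p of 0.05, a bar at the median of each list and a dashed line at the median of all tested genes (0.0044). The cytosolic synthetases have a median of -0.12, the mitochondrial ones 0.19 and the 28 amino acid response genes -0.42.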

How the data were processed

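Per the file headers, the authors deposited expected counts and FPKM per gene for 4 libraries, and a table comparing control and knockout with the mean signal of each group, a log2 fold change and p-values for each gene. The submitters' processing notes name Bowtie2 2.2.5 and the build mm9. For the counting tool, annotation release and strand setting, the sources used here give nothing. Unlisted genes were set to 0. Estimated counts, 31178248 to 32332044 per library, were rounded and tested in R 4.3.3 with edgeR 4.0.16 (TMM, filterByExpr, quasi-likelihood F test of KO against WT, Benjamini-Hochberg over 13773 tested genes, called under 0.05). SEs were derived from the log2 fold change and F, and the biological coefficient of variation was 10.3%. Levels are the deposited FPKM, and CPM is TMM-scaled. Alternatives were DESeq2 1.42.0, other scalings, no filter, limma 3.58.1 on log2(FPKM + 0.1) with a mean of at least 1 FPKM, a replicate block, summed transcript entries and each library left out. The scripts were tested on simulated data, where edgeR recovered 62% of 1.5-fold and 92% of 2-fold changes, with 23 false calls. Smaller changes were not simulated, and all changes of the synthetase genes were below 1.5-fold. Named genes were the targeted genes, all 36 synthetase genes and up to 4 members of each other list with the smallest p-values. The synthetase genes, lists, motifs and tests were chosen with earlier results of these data known. Promoter windows were matched by gene number to RefSeq (GRCm38.p6), for 27 of 36 genes, and coordinates are of that assembly. 1 erythroid marker is not reported here.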

Additional observations from a re-analysis of the deposited data

How the results depend on the processing

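Aars was called in 10 and Yars in 9 of the 15 alternatives, and both were lower in KO cells in all 15. The counts of genes called lower and higher in KO cells, 776 and 498 over all tested genes, were 455 and 265 with no filter on low counts, and 494 were lower by limma on FPKM. With a library left out, by edgeR or, as chosen after seeing the data, by DESeq2, cytosolic synthetase genes called lower ran from 0 to 1, amino acid response genes from 0 to 15, and all genes from 0 to 825 lower and from 0 to 450 higher. The cytosolic median ran from -0.18 to -0.056 and the mitochondrial one from 0.15 to 0.20 over the same alternatives, and the mitochondrial median was 0.20 with upper-quartile scaling and 0.22 by limma. Genes near 0 changed sign. Rars was 0.012 by limma, Vars 0.0049 with upper-quartile scaling, 0.0019 with no filter and 0.028 by limma, and Hars2 0.11 with its entries summed. Summing them also turned the log2 ratio of counts of Hars to Hars2, KO minus WT, to -0.026, against 0.15, in an alternative chosen after seeing the data. With a library left out, Farsa ran from -0.092 to 0.0094, Qars from -0.046 to 0.13, Rars from -0.085 to 0.044, Vars from -0.081 to 0.075, Aars2 from -0.012 to 0.20, Ears2 from -0.0055 to 0.029 and Tars2 from -0.018 to 0.13.

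Replicate numbers are shared by the groups, but nothing says that they mark a shared litter or day, and deviations of same-numbered libraries correlated at 0.107 with only 2 pairs. With the replicate block, 1367 genes were lower and 949 higher, with 4 cytosolic synthetase genes lower (Aars, Nars, Tars and Yars) and 1 mitochondrial gene higher (Yars2).

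Each group held 2 libraries. With a WT library left out, the lone WT library is assumed to vary like the KO libraries, and edgeR called 0 genes.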

Other observations

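Of the genes that make tRNA and build or run cytosolic ribosomes, 1 was called between KO and WT cells. For comparison, edgeR called 9.25% of all tested genes, 5.63% as lower and 3.62% as higher. At an unadjusted edgeR p under 0.05, 15.3% of all tested genes were lower and 13.8% higher. Both KO libraries lay below both WT libraries for 30.7% of all tested genes and above them for 30.9%. Of 14 genes of RNA polymerase III, which transcribes tRNA, and its factors, 1 fell and 0 rose by edgeR and by DESeq2, and the median log2 fold change was 0.02. 5 of them were lower in both KO libraries and 5 higher, and 3 had an unadjusted edgeR p under 0.05. The gene that fell was Bdp1, a subunit of the initiation factor TFIIIB, with 78.0 and 75.8 CPM in KO cells, against 94.0 and 109 CPM in WT cells (log2 fold change -0.40, SE 0.091, edgeR adjusted p = 0.0442). Polr3d and Polr3k, subunits of the enzyme, lay on opposite sides without passing, at -0.27 and 0.32. Of 12 ribosome biogenesis genes edgeR and DESeq2 called 0, 2 had an unadjusted edgeR p under 0.05, and the median was -0.01. Myc, a regulator of ribosome production, had 286 and 298 CPM in KO cells, against 335 and 338 CPM in WT cells (log2 fold change -0.21, SE 0.070, edgeR adjusted p = 0.116). Of 7 cytosolic elongation and release factor genes edgeR and DESeq2 also called 0, with 0 at an unadjusted edgeR p under 0.05, 6 positive values, 4 of the genes higher in both KO libraries and a median of 0.07. Eef1g and Eef1d, subunits of the factor that reloads the carrier of charged tRNA, were higher in both KO libraries at 0.15 and 0.14, and Eef2, which moves the ribosome along, was lower at -0.08.

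Among 6 genes for enzymes related to the synthetases, 4 had a positive log2 fold change and the median was 0.21, with 0 calls by edgeR or DESeq2. An unadjusted edgeR p under 0.05 was found for 2 of the 6, both higher, against 13.8% of all tested genes as higher. Dtd1, which removes D-amino acids from tRNA, had 5.68 and 4.91 CPM in KO cells, against 3.76 and 3.72 CPM in WT cells (log2 fold change 0.50, SE 0.17, edgeR adjusted p = 0.115). Aarsd1, which removes serine wrongly joined to the tRNA for alanine, and Pstk, a kinase of the selenocysteine pathway, were also higher in both KO libraries, at 0.34 and 0.31.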
